A study of Mus musculus with 12 samples.

Results

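Gas6 and protein S are secreted ligands of the TAM receptors, a family of receptor tyrosine kinases made up of Tyro3, Axl and Mertk. The 7 genes described are the ligands *Gas6* and *Pros1*, the receptors *Axl*, *Mertk* and *Tyro3*, and the enzymes *Ggcx* and *Vkorc1*, out of 54232 genes in the count table. They were chosen around *Gas6* with the contrast between knockout and control livers already known, so their differences in that contrast are a description and support nothing further.

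Both ligands carry a domain whose glutamates are carboxylated by the vitamin K-dependent enzyme Ggcx, and vitamin K is recycled for this reaction by Vkorc1. The carboxylated domain binds phosphatidylserine on dying cells and vesicles, while the rest of the ligand binds the receptor. In liver the receptors are best known on macrophages, stellate cells and endothelial cells. On macrophages they serve the uptake of dead cells and restrain inflammatory signalling.

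The livers came from male C57Bl/6J mice that were 10 weeks old and had been fasted for 4 h. The 6 *Marchf6* LKO mice (LKO) carried a floxed *Marchf6* gene on both alleles and Cre recombinase under the albumin promoter. The 6 controls (WT) were littermates that carried the same floxed alleles without Cre. *Marchf6* encodes a ubiquitin ligase of the endoplasmic reticulum, and the comparison asks how liver mRNA differs when hepatocytes lack it. The paper describes the knockout as hepatocyte-specific, and whether the other cell types of the liver kept the gene was not measured here.

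One mRNA library was sequenced per mouse, and the deposited values were reads counted per Ensembl gene. The total of these counts was lowest in a WT liver, at 14860414, and highest in an LKO liver, at 22111926. TMM scaling, which trims extreme genes before libraries are compared, turned the counts into normalized CPM, a gene's reads scaled to a library of fixed size. The libraries were numbered with every WT liver ahead of every LKO liver, and the effects of that order and of genotype cannot be told apart.

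The targeted gene, *Marchf6* (ENSMUSG00000039100), had 226 normalized CPM in the lowest WT liver, a median of 244 and 247 in the highest. In LKO livers the lowest, median and highest values were 204, 227 and 249. The groups overlapped, and the count over the whole gene checks little here because the allele loses a single exon. The genotype of each library was therefore taken from its label.

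*Gas6* (ENSMUSG00000031451) lies on the minus strand of chromosome 8 of GRCm38, at chr8:13465374-13494490. Its normalized CPM were 23.4 in the lowest WT liver, 26.1 at the median and 34.5 in the highest. In LKO livers they were 42.5, 53.3 and 56.9. Every LKO liver lay above every WT liver, with WT replicate 2 the highest control and LKO replicate 6 the lowest knockout. WT livers averaged 26.7 ± 4.05 (SD, n = 6) and LKO livers 52.0 ± 5.25 (SD, n = 6), a ratio of 1.94.

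The log2 fold change of *Gas6* was 0.96 with a standard error of 0.098, and edgeR's quasi-likelihood test, with p-values adjusted over all genes by the Benjamini-Hochberg method, gave an adjusted p of 0.000203. By p it stood at place 7 among the 17509 genes tested. The reads behind these values numbered 338 to 586 in the WT group and 787 to 1295 in the LKO group. The exons of *Gas6* share 34 nt with *Tmem255b* on the opposite strand, out of 2548 nt, and whether the counting used strand is not given in the sources used here.

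*Pros1*, which encodes protein S, an anticoagulant as well as a TAM ligand, lies at chr16:62854307-62929346. Its normalized CPM were 69.3, 75.1 and 82.8 at the lowest, median and highest WT liver and 77.4, 81.1 and 86.7 in LKO livers. The ranges overlapped, although 6 of 6 LKO livers lay above the WT mean. The log2 fold change was 0.12 (standard error 0.060), and the adjusted p in edgeR's quasi-likelihood test was 0.455.

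Per kilobase of exon, *Gas6* made up 36.3% ± 3.63 (SD, n = 6) of the summed *Gas6* and *Pros1* level of WT livers and 50.5% ± 2.90 (SD, n = 6) in LKO livers. This share was computed after the values had been seen. It ran from 31.2% to 41.6% in WT livers and from 44.9% to 53.4% in LKO livers.

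Among the receptors, *Axl* lies at chr7:25757273-25788705 and encodes a receptor that binds Gas6 but not protein S. Its normalized CPM were 9.40 in the lowest WT liver, 10.9 at the median and 12.1 in the highest. The corresponding LKO values were 11.5, 15.2 and 19.1. Of the 6 LKO livers, 5 lay above every WT liver, and LKO replicate 6 lay within the WT range. WT livers averaged 10.9 ± 0.957 (SD, n = 6) and LKO livers 15.2 ± 2.44 (SD, n = 6).

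The log2 fold change of *Axl* was 0.48 with a standard error of 0.107, and the adjusted p in edgeR's quasi-likelihood test was 0.0676, so *Axl* did not pass the threshold of 0.05. Its call depended on the processing: over all alternatives the adjusted p ran from 0.00634 to 0.155. It was 0.00634 with DESeq2, 0.0449 without the filter on low counts and 0.0201 without LKO replicate 6.

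*Mertk*, at chr2:128698956-128802894, encodes a receptor of resident macrophages that takes part in the engulfment of dead cells. It had 22.9, 28.2 and 31.5 normalized CPM at the lowest, median and highest WT liver and 23.9, 29.5 and 36.9 in LKO livers. The groups overlapped over most of their range. The log2 fold change was 0.10 (standard error 0.104), and the adjusted p from edgeR was 0.765.

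*Tyro3*, at chr2:119797733-119818104, had few reads, with 2 to 6 reads in each WT liver and 4 to 9 in each LKO liver. The reads summed to 21 in WT and 38 in LKO livers. Its log2 fold change of 0.60 had a standard error of 0.350, and edgeR's quasi-likelihood test gave an adjusted p of 0.533.

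The carboxylase gene *Ggcx*, at chr6:72414308-72430712, had 74.7, 83.6 and 90.0 normalized CPM at the lowest, median and highest WT liver. In LKO livers these were 67.8, 71.0 and 78.3. All 6 LKO livers lay under the WT mean and 4 of them under the lowest WT liver, and the ranges overlapped between 74.7 and 78.3. The log2 fold change was −0.19 (standard error 0.063), which did not pass the threshold in edgeR's quasi-likelihood test (adjusted p = 0.230).

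*Vkorc1*, the vitamin K epoxide reductase gene at chr7:127893063-127895617, had 36.4, 39.4 and 42.1 normalized CPM at the lowest, median and highest WT liver and 38.5, 42.9 and 46.6 in LKO livers. These ranges overlapped, with 3 LKO livers above the highest WT liver. The log2 fold change was 0.12 (standard error 0.062), and the adjusted p from edgeR was 0.492. Of its 840 nt of exon, 401 nt are shared with *Gm21974* on the same strand, so its level is uncertain.

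**Figure D1:**
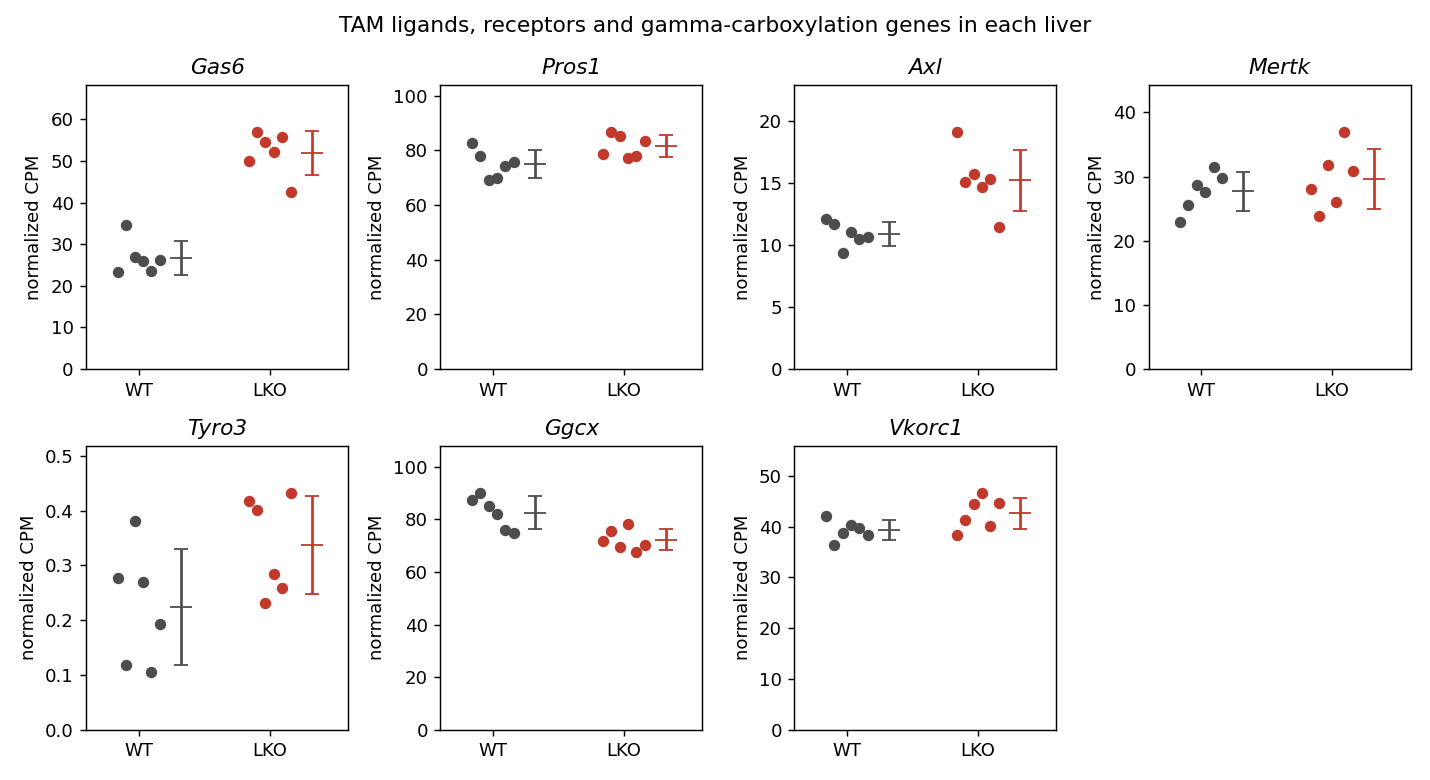
Normalized CPM (vertical axes, from 0) of the 7 genes in each of 6 WT and 6 LKO livers. Points are livers, and the bars beside them are the mean ± SD. *Gas6* is the gene whose groups do not overlap, with WT livers from 23.4 to 34.5 and LKO livers from 42.5 to 56.9.

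All 7 genes passed the filter on low counts, and 1 of them, *Gas6*, passed an adjusted p of 0.05. Over all 17509 genes tested, 75 passed, which is 0.428%, and those higher in LKO livers were 48, or 0.274%. The count of 75 was 38 without WT replicate 5, 132 without WT replicate 3, 114 without the filter on low counts and 351 with DESeq2. The groups did not overlap for 1 of the 7 genes, again *Gas6*, and for 1.30% of all genes tested. Nothing is read from these counts, since the genes were chosen on this contrast. The median log2 fold change over the 7 genes was 0.12, beside 0.00 over all genes tested.

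Levels of different genes were compared as normalized CPM per kilobase of exon. In WT livers the order from high to low was *Vkorc1* at 46.8, *Ggcx* at 25.5, *Pros1* at 18.4, *Gas6* at 10.5, *Mertk* at 6.38, *Axl* at 2.17 and *Tyro3* at 0.0361. Each gene in this order lay above the next in 6 of 6 WT livers, and the ranges of neighbours did not overlap.

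In LKO livers *Gas6* stood at 20.4 ± 2.06 per kilobase (SD, n = 6), between *Ggcx* at 22.3 ± 1.24 and *Pros1* at 19.96 ± 1.01. The ranges of these neighbours overlapped, with *Ggcx* above *Gas6* in 4 livers and *Gas6* above *Pros1* in 5. *Vkorc1* at 50.8, *Mertk* at 6.83, *Axl* at 3.03 and *Tyro3* at 0.0545 kept the places they had in WT livers.

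The lists that follow are read beside the same counts over the whole table. Of the 17509 genes tested in edgeR, 2047 (11.7%) had an unadjusted p under 0.05 and 50.0% had a log2 fold change above 0. At an adjusted p of 0.05, DESeq2 called 351 of 16141 genes (2.17%) and limma voom 85 of 17509 (0.485%).

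Cells other than hepatocytes contribute to these levels, and in bulk tissue fewer cells of a type and less RNA per cell cannot be told apart. Of 11 Kupffer cell markers, genes of the resident macrophages, 11 had a log2 fold change above 0 under each scaling, and with TMM scaling the values ran from 0.29 to 0.52. At an adjusted p of 0.05, edgeR and limma voom called 0 of them, whereas DESeq2 called 3, *Clec4f*, *Vsig4* and *Cd5l*. At an unadjusted p under 0.05 there were 10 of 11, beside 11.7% of all genes tested.

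The summed level of the Kupffer cell markers over WT replicates 1 to 6 was 142, 194, 169, 171, 181 and 181 normalized CPM. Over the LKO replicates, in the same order, it was 232, 238, 299, 223, 207 and 173. Their most abundant gene, *Clec4f*, averaged 45.0 ± 4.32 normalized CPM across WT livers (SD, n = 6) and 59.1 ± 9.22 (SD, n = 6) in LKO livers. The sum in LKO livers was 1.32 times that in WT livers, and 5 of 6 LKO livers lay above the highest WT liver, with LKO replicate 6 within the WT range. LKO replicate 6, the lowest knockout for both *Gas6* and *Axl*, had the lowest sum among the knockouts for this list and also for the stellate cell, activated stellate cell, sinusoidal endothelial, and monocyte and neutrophil markers. For the bile duct and hepatocyte markers the lowest knockouts were LKO replicate 4 and LKO replicate 5. None of the Kupffer cell markers was at 3 or fewer reads in every liver.

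Of 10 stellate cell markers, genes of the vitamin A-storing cells, 10 had a log2 fold change above 0 under each scaling, and with TMM scaling the values ran from 0.04 to 0.47. None passed in edgeR, DESeq2 or limma voom, and 2 of 10 had an unadjusted p under 0.05 in edgeR, beside 11.7% of all genes. Over WT replicates 1 to 6 their sum was 339, 244, 292, 299, 225 and 319 normalized CPM, and over the LKO replicates 390, 325, 388, 325, 351 and 268. The most abundant, *Dcn*, averaged 96.2 ± 17.9 normalized CPM among WT livers and 114 ± 11.3 among LKO livers (SD, n = 6).

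Of the 8 sinusoidal endothelial markers, 7 had a log2 fold change above 0, and 8 did with upper-quartile scaling or without the 20 most abundant genes in the scaling. Their median was 0.05. None passed in edgeR or limma voom, 1 of 8 had an unadjusted p under 0.05 in edgeR (11.7% of all genes), and DESeq2 called *Lyve1*. *Lyve1* lay far from the median, with a log2 fold change of 0.77 and an adjusted p of 0.103 in edgeR. Its mean was 7.66 normalized CPM in WT livers and 13.0 in LKO livers. The sum of the 8 markers averaged 196 ± 19.6 normalized CPM across WT livers (SD, n = 6) and 206 ± 18.1 (SD, n = 6) in LKO livers, with *Stab2* the most abundant gene.

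All 6 monocyte and neutrophil markers had a log2 fold change above 0. None passed in edgeR or limma voom, and 3 of 6 had an unadjusted p under 0.05 in edgeR, beside 11.7% of all genes. DESeq2 called *S100a8* and *S100a9*, beside 2.17% of all genes it tested. *S100a8* had 0 to 2 reads in each WT liver and 4 to 38 in each LKO liver. It passed the filter on low counts only through the LKO livers, so nothing is read from its call, from its direction or from its place among the 3. *S100a9* had 1 to 5 reads in each WT liver and 6 to 47 in each LKO liver. With 1 read in WT replicate 5, *S100a9* could not have passed the filter on the WT livers alone. Nothing is read from its call or direction either, nor from the count of 6. Over WT replicates 1 to 6 the sum of the 6 markers was 21.6, 21.7, 16.3, 21.9, 20.2 and 18.2 normalized CPM, and over the LKO replicates 41.1, 27.95, 35.3, 18.5, 19.8 and 17.3. Most of it came from *Lyz2*, and LKO replicates 4, 5 and 6 lay within the WT range.

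Of the remaining cell type lists, none of 4 tested markers of activated stellate cells, 5 of bile ducts and 6 of hepatocytes passed in edgeR, DESeq2 or limma voom. At an unadjusted p under 0.05 in edgeR these lists had 0, 1 and 2 genes, beside 11.7% of all genes, and 3, 3 and 1 of their genes had a log2 fold change above 0. Their most abundant genes were *Col1a2*, *Spp1* and *Alb*. The summed hepatocyte markers averaged 103569 ± 7392 normalized CPM across WT livers (SD, n = 6) and 93102 ± 3197 (SD, n = 6) in LKO livers.

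*Gas6* and *Axl* were also set against each of these sums in each liver, comparisons added after the data had been seen. Per 100 CPM of Kupffer cell markers, *Gas6* had 15.5 ± 1.64 CPM in WT livers and 23.1 ± 2.94 CPM in LKO livers (SD, n = 6). The highest WT liver, at 17.8, lay under the lowest LKO liver, at 18.3. Against the sinusoidal endothelial markers the values were 13.8 ± 2.44 in WT and 25.3 ± 2.75 in LKO livers (SD, n = 6), again without overlap.

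Against the stellate cell markers *Gas6* had 9.60 ± 2.50 CPM per 100 in WT and 15.4 ± 1.65 in LKO livers (SD, n = 6), and here WT replicate 2, at 14.1, lay within the LKO range. The groups also overlapped against the monocyte and neutrophil, activated stellate cell and bile duct markers, where the LKO mean was 1.59, 1.59 and 2.01 times the WT mean. Against the hepatocyte markers every LKO liver lay above every WT liver, with a ratio of 2.15.

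*Axl* had 6.38 ± 1.10 CPM per 100 CPM of Kupffer cell markers in WT and 6.75 ± 1.01 in LKO livers (SD, n = 6), a ratio of 1.06 with overlapping groups. Per 100 CPM of stellate cell markers it had 3.88 ± 0.672 and 4.46 ± 0.297 (SD, n = 6), a ratio of 1.15. The groups overlapped as well against the sinusoidal endothelial markers (ratio 1.31), the monocyte and neutrophil markers (1.12), the activated stellate cell markers (1.13) and the bile duct markers (1.41). Against the hepatocyte markers the ratio was 1.55, and every LKO liver lay above every WT liver. The part of the cell type markers in the *Gas6* and *Axl* differences was not tested.

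**Figure D2:**
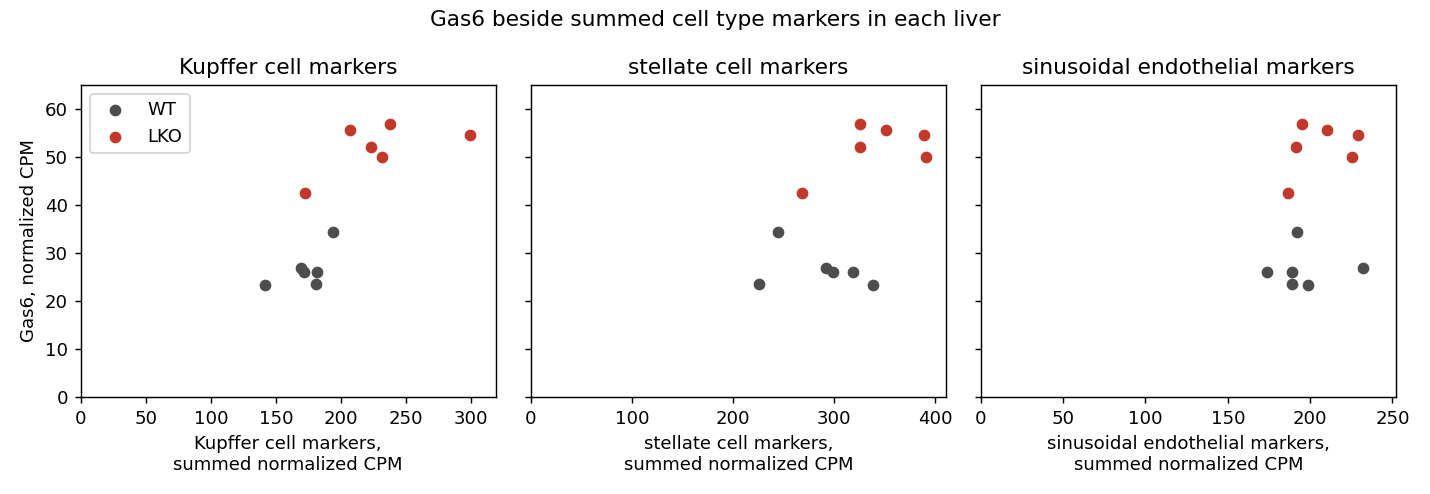
*Gas6* (vertical axis, normalized CPM) against the summed normalized CPM of Kupffer cell, stellate cell and sinusoidal endothelial markers (horizontal axes), with 1 point per liver. LKO livers lie higher on the *Gas6* axis, from 42.5 to 56.9. Above the highest WT liver lie 5 of 6 LKO livers for the Kupffer cell sum, 3 for the stellate cell sum and 0 for the sinusoidal endothelial sum.

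The list of other vitamin K-dependent proteins includes clotting factors and their inhibitors, which hepatocytes secrete after the same carboxylation. Of its 14 genes, 12 were tested, 4 with a log2 fold change above 0 and 8 below. At an adjusted p of 0.05, edgeR and limma voom called 0 of them, 2 of 12 had an unadjusted p under 0.05 in edgeR (11.7% of all genes), and DESeq2 called *F9*. The list held *Habp2*, a protease gene whose product lacks the carboxylated domain; without it, a choice made after the data had been seen, 11 were tested, 4 above 0 and 7 below, and edgeR again called 0. The most abundant were *F2*, the prothrombin gene, at 1747 ± 64.03 and 1629 ± 82.8 normalized CPM in WT and LKO livers (SD, n = 6), *Proz* at 445 ± 12.9 and 394 ± 51.2, and *F10* at 423 ± 14.8 and 406 ± 35.0.

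Of 6 further genes of vitamin K metabolism none passed in edgeR, DESeq2 or limma voom, and 2 of 6 had an unadjusted p under 0.05 in edgeR, beside 11.7% of all genes. The most abundant, *Cyp4f14*, had 306 ± 31.5 normalized CPM in WT and 246 ± 30.4 in LKO livers (SD, n = 6), a log2 fold change of −0.31 with an adjusted p of 0.181 in edgeR. *Calu*, whose product calumenin restrains the carboxylase, had a log2 fold change of −0.07, and *Vkorc1l1*, the paralogue of *Vkorc1*, one of −0.05.

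The list of other TAM ligands and of proteases that shed the receptors had 5 genes, of which 3 were tested. None passed in edgeR, DESeq2 or limma voom, and 0 of 3 had an unadjusted p under 0.05 in edgeR, beside 11.7% of all genes. The sheddase genes *Adam10* and *Adam17* had log2 fold changes of 0.02 and −0.10, and *Lgals3*, which encodes galectin-3, one of 0.42 with a standard error of 0.290. The ligand genes *Tulp1* and *Tub* were at 3 or fewer reads in every liver.

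Downstream of the receptors, 19 mediators of TAM signalling were tested, 6 with a log2 fold change above 0 and 13 below. With upper-quartile scaling 8 were above 0. None passed in edgeR or limma voom, 2 of 19 had an unadjusted p under 0.05 in edgeR (11.7% of all genes), and DESeq2 called *Vav1*. *Vav1* had a log2 fold change of 0.77 with an adjusted p of 0.0687 in edgeR, and every LKO liver lay above every WT liver. The most abundant were *Pik3r1*, a regulatory subunit of phosphoinositide 3-kinase, with a log2 fold change of −0.19, the GTPase gene *Rac1* with −0.02, and *Nfe2l2*, the gene of the transcription factor Nrf2, with −0.02.

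Of 20 other genes of engulfment, 18 were tested, 13 with a log2 fold change above 0 and 5 below. Of the 20 genes, 5 are also on the Kupffer cell or endothelial list. None passed in edgeR or limma voom, 10 of 18 had an unadjusted p under 0.05 in edgeR (11.7% of all genes), and DESeq2 called *Lrp1*. Those 10 include the 4 genes shared with the Kupffer cell list, which were counted there as well. Log2 fold changes in the engulfment list ran from −1.19 to 1.46. *Lrp1*, a lipoprotein receptor that also binds calreticulin on dying cells, had 1583 ± 176 normalized CPM in WT and 1231 ± 107 in LKO livers (SD, n = 6), a log2 fold change of −0.36 with an adjusted p of 0.0809 in edgeR. *Calr*, the calreticulin gene, had a log2 fold change of −0.27 (adjusted p = 0.250 in edgeR), and *Anxa5*, whose product binds phosphatidylserine, one of 0.49 (adjusted p = 0.168 in edgeR).

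**Figure D3:**
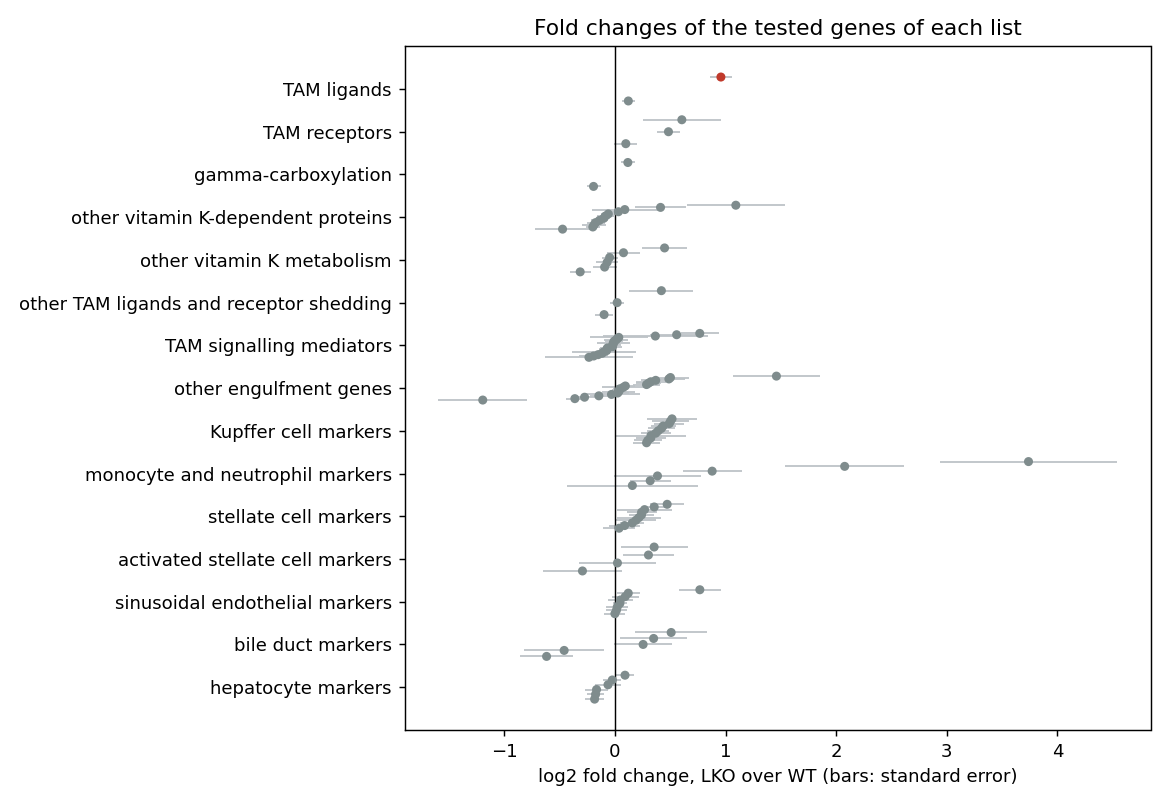
Log2 fold change between LKO and WT livers (horizontal axis) of every tested gene, by list (vertical axis), with bars for the standard error. Red marks *Gas6*, the gene past an adjusted p of 0.05, and all 11 Kupffer cell markers and all 10 stellate cell markers lie above 0. The rightmost point, *S100a8*, had almost no reads in WT livers, so its fold is poorly defined.

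The position of *Gas6* was also examined. Within 500 kb on either side, 23 other genes were tested, among them the vitamin K-dependent genes *F7*, *F10* and *Proz*. None was called by edgeR, DESeq2 or limma voom, and 1 of 23 had an unadjusted p under 0.05 in edgeR, beside 11.7% of all genes. Their log2 fold changes ran from −0.23 to 0.60 with a median of −0.04, and the highest belonged to the antisense gene *Gm17023*, which averaged 0.480 normalized CPM in LKO livers.

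The genes most like *Gas6* from liver to liver were found by Pearson correlation of log2 CPM over the 12 livers, after the mean of each genotype had been taken out. Among 9144 genes with at least 100 reads per liver on average, the 5 highest were *Heatr5a* (r = 0.866), *Rnf130* (r = 0.804), *B4galnt1* (r = 0.799), *Nop14* (r = 0.796) and *Rbm15b* (r = 0.795). They are the highest of many, so no p is given. Without WT replicate 2 and LKO replicate 6, the livers farthest from the *Gas6* median, r lay between 0.455 and 0.644. The genotype means taken out still included those 2 livers, so a difference between genotypes can remain in these values. How far the likeness rests on those livers is therefore not settled.

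None of these 5 genes passed an adjusted p of 0.05 in edgeR or limma voom. At an unadjusted p under 0.05 edgeR had 1, and DESeq2 called 1, in both cases *Heatr5a*. They had log2 fold changes from −0.25 for *Heatr5a* to 0.10 for *Rnf130*. By the same correlation *Axl* had r = 0.350 with *Gas6*, *Ggcx* 0.372, *Pros1* −0.00984, *Mertk* −0.119 and *Vkorc1* −0.529. Without the same 2 livers these were −0.219, 0.0461, −0.157, 0.111 and −0.294. These values too used genotype means that included those 2 livers, so nothing is read from the changes in sign. *Tyro3* had too few reads to enter.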

How the data were processed

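Liver mRNA of 6 WT and 6 LKO mice was sequenced after library preparation with a KAPA mRNA HyperPrep kit from 50 ng of RNA. Per the submitters' processing notes, the authors used FastQC 0.11.15, Trimmomatic 0.36, HISAT2 2.1.0 and HTSeq 0.6.1 with GRCm38.p6, and they deposited raw read counts per gene, with no normalization. The strand setting and overlap mode of the counting are not given in the sources used here. Gene names and exon lengths came from GENCODE M21, which held 54165 of the 54232 identifiers. The hepatocyte marker *Tf* matched no symbol there because the mouse gene is named *Trf*, so the hepatocyte list and its sum lack it.

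The filter of the study, above 2 reads in 6 or more livers, left 17509 genes. After TMM scaling these entered edgeR's quasi-likelihood test (edgeR 4.0.16, R 4.3.3) with no term besides genotype, and p-values were adjusted across the whole table by the Benjamini-Hochberg method. The standard error given with a log2 fold change is the size of that change divided by the square root of the test's F statistic. The log2 CPM used a prior count of 0.5. The edgeR, limma voom and DESeq2 fits were run beforehand on counts simulated from the edgeR model. A limit on the share of false calls was set there for edgeR only. Alternatives were RLE and upper-quartile scaling, scaling without the 20 most abundant genes, no filter, filterByExpr, limma voom (limma 3.58.1, the test of the study), a replicate block, DESeq2 1.42.0, and leaving out every liver once.

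The genes and lists were chosen with earlier results of these data known. The text names the 7 genes, *Marchf6*, the 3 most abundant genes and any gene past an adjusted p of 0.05 in each pathway list, the most abundant gene and any gene past it in each cell type list, markers at 3 or fewer reads, and the 5 genes most like *Gas6*. Genes that DESeq2 called, *F7*, *Habp2* and *Gm17023* were named after their values were seen. Since the reads carry no molecular identifiers, read numbers speak for counting error only.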

Additional observations from a re-analysis of the deposited data

Results flagged for a closer look

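Values were searched for a single liver apart from the rest of its group, by the gap to the nearest liver divided by the distance from lowest to highest. Among 62 groups of 6 livers, 9 had a share above Dixon's critical value at 95%, and chance gives about 1 in 20 groups. Many of the 62 share livers and genes, so they are not independent. *Gas6* in WT replicate 2, at 34.5 normalized CPM, lay above the other controls with a share of 0.685. The percent of the ligand level that came from *Gas6* in LKO replicate 6, at 44.9%, lay under the other knockouts with a share of 0.664.

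In LKO replicate 1 the summed bile duct markers, at 129 normalized CPM, lay above the other knockouts with a share of 0.8. Most of that sum was *Spp1*, at 114 normalized CPM. The summed activated stellate cell markers of LKO replicate 1 likewise lay above the other knockouts, with a share of 0.641. Per 100 CPM of activated stellate cell markers, *Gas6* and *Axl* were lowest in the same liver, at 167 and 63.7 CPM, with shares of 0.734 and 0.683. *Axl* per 100 CPM of Kupffer cell markers was highest in WT replicate 1, at 8.53 CPM, with a share of 0.700. In WT replicate 3, *Axl* was lowest per 100 CPM of sinusoidal endothelial markers, at 4.05 CPM with a share of 0.710, and per 100 CPM of hepatocyte markers, at 0.00807 CPM with a share of 0.626. What sets these livers apart was not tested.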

How the results depend on the processing

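The higher *Gas6* level in LKO livers kept its direction and its call under all 20 alternatives, with log2 fold changes of 0.92 to 1.04. The median log2 fold change over the 7 genes ran from 0.11 to 0.15. The number of the 7 genes called was 1 in most alternatives and 2, with *Axl* added, without the filter and with DESeq2, and it ran from 1 to 2 as livers were left out. The number of all genes called, 75 in the main analysis, was 114 without the filter and 351 with DESeq2. It ran from 38 without WT replicate 5 to 132 without WT replicate 3. The causes of these shifts were not tested. *Axl* kept its direction throughout. The other 5 members kept their direction and their side of the threshold in every alternative that tested them, and *Tyro3* was not tested under filterByExpr. With the replicate number as a block, 97 genes were called, and *Gas6* remained called while *Axl* was not. The replicate numbers belong to different mice, and the correlation of same-numbered livers ran from −0.0649 to 0.135. Not every liver correlated best with its own number, a hint from the data only, so the numbers were not taken as pairs. For *Tyro3* the fold change rests on 2 to 9 reads per liver. Leaving *Habp2* out of the vitamin K-dependent list, an alternative chosen after seeing the data, left 0 of its genes called.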
